A study of Homo sapiens with 6 samples.

Results

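Aminoacyl-tRNA synthetases are the enzymes that load each amino acid onto its transfer RNA. The 36 genes described here were chosen by name, 20 encoding cytosolic enzymes and 16 encoding mitochondrial ones, out of 58051 genes in the table, and each matched exactly 1 row. The cells came from the human breast cancer line MDA-MB-231, labelled WT, and were sorted by flow cytometry after staining with FITC-conjugated recombinant human FABP4, a fatty acid carrier protein. The 2 groups were FABP4 binding cells and FABP4 non-binding cells, with 3 libraries each, all from the same line and the same stain. Total RNA was depleted of ribosomal RNA, fragmented and randomly primed. The labels do not tell whether the 3 libraries per group are separate cultures or repeats of one preparation. The p-values hence reflect only how far these libraries scatter, and that scatter may be technical.

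A cell holds separate sets of synthetases for its cytosol and its mitochondria, all encoded in the nucleus and nearly all by separate genes, the mitochondrial ones marked by a trailing 2 in their names. KARS and GARS are exceptions, since each encodes both the cytosolic and the mitochondrial form, and mitochondria make glutaminyl-tRNA through an amidotransferase (GATB, GATC, QRSL1) instead of a synthetase. In the cytosol, several synthetases are bound together in the multi-synthetase complex on the scaffolds AIMP1, AIMP2 and EEF1E1. Many cytosolic synthetase genes are known targets of ATF4, the transcription factor of the amino acid response, which binds a composite element called CARE.

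The CARE core was looked for in RefSeq promoter windows (GRCh38.p14, 250 bases before to 50 bases after each transcription start), because it is the sequence that ties these genes to ATF4. The letters searched were TGATGNAA on both strands, and a match is a description of the sequence, not evidence of binding. Of the members, 30 had a window. The core was in 7 of 16 cytosolic members with a window (AARS, CARS, GARS, IARS, MARS, NARS and TARS) and in 1 of 14 mitochondrial members (YARS2), where 4.46% of all 27305 genes with windows held it. The 40 bases around each match follow, 5′ to 3′ on the strand of the gene, with the match in capitals.
AARS, chr16:70289670-70289709, minus strand: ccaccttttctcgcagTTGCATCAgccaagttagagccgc
CARS, chr11:3057402-3057441, minus strand: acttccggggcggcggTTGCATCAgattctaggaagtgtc
GARS, chr7:30594829-30594868, plus strand: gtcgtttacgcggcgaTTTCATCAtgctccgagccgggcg
IARS, chr9:92293687-92293726, minus strand: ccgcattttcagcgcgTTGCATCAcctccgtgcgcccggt
MARS, chr12:57488048-57488087, plus strand: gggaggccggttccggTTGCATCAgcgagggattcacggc
NARS, chr18:57621799-57621838, minus strand: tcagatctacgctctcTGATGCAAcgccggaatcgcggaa
TARS, chr5:33440951-33440990, plus strand: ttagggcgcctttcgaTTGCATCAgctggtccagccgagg
YARS2, chr12:32756071-32756110, minus strand: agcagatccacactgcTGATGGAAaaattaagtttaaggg
In 6 of the 7 cytosolic genes the core reads TTGCATCA or its reverse complement TGATGCAA, and GARS has TTTCATCA. The first base of the match lay between 33 bases before and 14 bases after the start in 6 of the 7, and at position -187 from it in AARS.

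**Figure D1:**
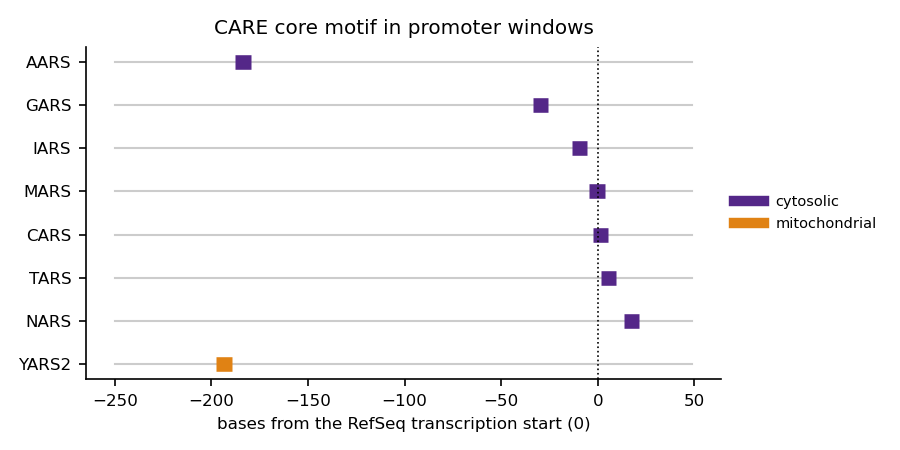
Position of the CARE core (coloured blocks) in the promoter windows that hold it; the horizontal axis is the distance in bases from the RefSeq transcription start. All of the cytosolic matches except that of AARS lie close to the start, and the mitochondrial match, in YARS2, begins at position -197.

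HARS and HARS2, the cytosolic and mitochondrial histidine enzymes, lie head to head on chromosome 5, and their transcription starts are 85 bases apart on opposite strands. Their promoter windows share 184 bases (chr5:140691321-140691504, GRCh38.p14), printed on the plus strand, the strand of HARS2, with the 86 bases from one start through the other in capitals.
HARS2 and HARS: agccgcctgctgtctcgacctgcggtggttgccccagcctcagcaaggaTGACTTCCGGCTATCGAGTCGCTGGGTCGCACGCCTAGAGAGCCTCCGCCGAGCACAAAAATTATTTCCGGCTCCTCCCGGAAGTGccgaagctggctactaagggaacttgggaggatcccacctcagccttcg
Neither CARE nor the motif of nuclear respiratory factor 1, a regulator of nuclear genes for mitochondria (searched on both strands), was in either window. That second motif was in 3 of 16 cytosolic members (FARSB, SARS, TARS) and 3 of 14 mitochondrial members (IARS2, MARS2, PARS2), and in 6.98% of all genes with windows. In TARS, the only member with both motifs, they did not overlap.

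Most synthetase genes had a higher mean level in the FABP4 binding cells, 13 of them past the test, and DARS, for aspartate, was the 1 that fell. Levels are in TPM, each gene's length-corrected part of the library, and a gene was called when the adjusted p of limma on log2(TPM + 1), with Benjamini-Hochberg adjustment over all 15574 genes tested, was below 0.05. All 36 members passed the filter of 1 TPM in at least 3 libraries. In the cytosolic set 9 of 20 genes rose, 1 fell and 10 did not pass, where 19.6% of all genes tested were called higher and 7.12% lower, 26.7% in either direction. In the mitochondrial set 4 of 16 rose, none fell and 12 did not pass. These shares of all genes include many at low levels. With a stricter filter of 5 TPM in at least 3 libraries, 32.7% of 10451 genes were called higher and 11.7% lower. Under that filter 11 of 20 cytosolic members were called higher and 1 lower, and 5 of 14 mitochondrial members higher. The median log2 change was 0.53 over cytosolic members and 0.63 over mitochondrial members, beside 0.36 over all genes tested. Without binding replicate 1 these medians were 0.33, 0.40 and 0.26, so that the cytosolic set lay 0.08 and the mitochondrial set 0.14 above all genes, where with all libraries they lay 0.17 and 0.27 above. Changes are therefore also given relative to that median of the whole table. Without non-binding replicate 2 or without non-binding replicate 3, no member passed by limma, although 13 and 10 cytosolic and 5 and 7 mitochondrial members had an unadjusted p below 0.05. The calls over all genes were then 280 higher and 80 lower without non-binding replicate 2 and 58 higher and 6 lower without non-binding replicate 3.

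The all-gene median depended on the scaling, and so did the member counts. With all libraries brought to one common median, WARS was the only cytosolic member called higher, DARS and EPRS were called lower, and IARS2 was the only mitochondrial member called higher (6.18% of all genes were then called higher and 12.1% lower). With quantile normalization 4 cytosolic members were called higher and 1 lower, and 1 mitochondrial member was called higher (7.69% of all genes higher and 8% lower). Under that scaling the cytosolic set had a median change of 0.43 and the mitochondrial set 0.33, the reverse of their order at the main scaling. DARS, WARS and IARS2 were the 3 members called under all 3 scalings. Over the 14 alternatives tried, the sign turned in at least 1 for GARS, KARS, VARS, FARS2 and RARS2, none of them called, and in none for the other members.

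**Figure D2:**
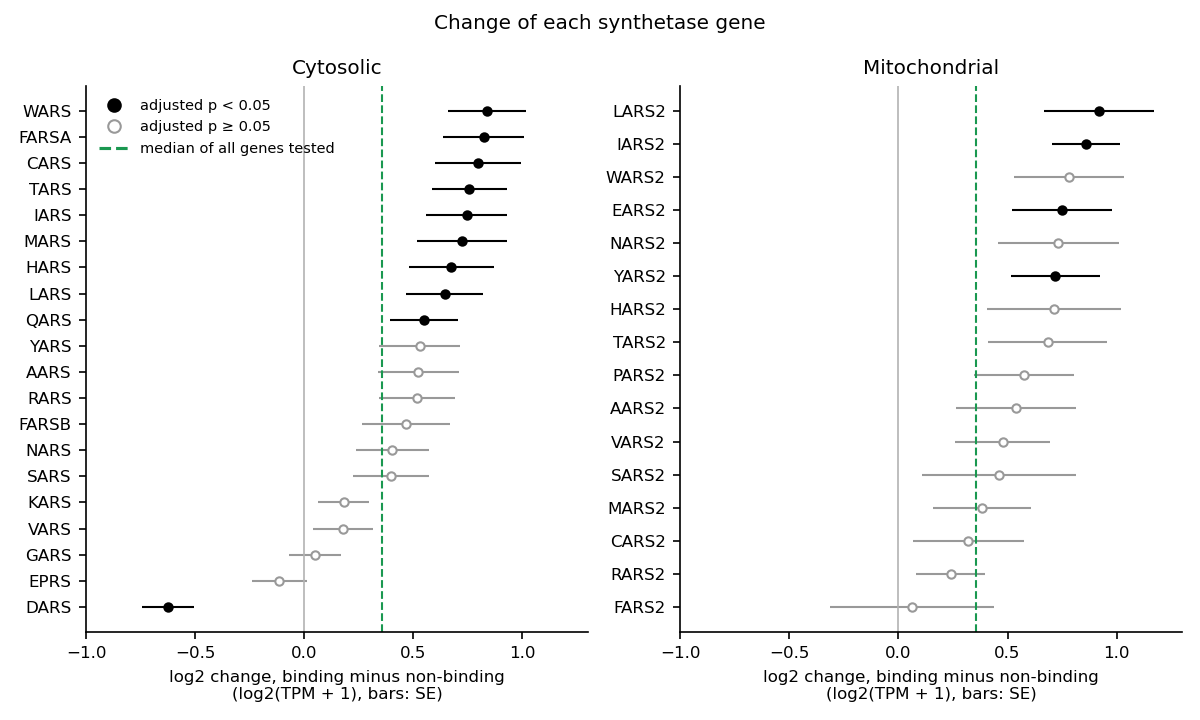
The log2 change of each synthetase gene, FABP4 binding minus non-binding, on the log2(TPM + 1) scale, with the standard error as bars; filled points passed an adjusted p of 0.05 and the dashed line is the median of all genes tested, 0.36. DARS at -0.63 stands alone on the left, and the highest point is WARS at 0.84 in the cytosolic set and LARS2 at 0.92 in the mitochondrial set.

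Several measures of the libraries moved with the groups. Binding replicate 1 was the highest of the 6 libraries for 32 of 36 members, against 49.4% of all genes tested. Transcripts of the mitochondrial genome took 9.99% to 11.2% of TPM in binding libraries and 2.98% to 3.38% in non-binding libraries. Of 9 epidermal keratinocyte markers 7 fell, and their summed level was 1273 to 2383 TPM in binding libraries, against 3074 to 4440 TPM in the non-binding ones, with none of the 9 at 0. Of 7 luminal breast markers 3 rose (KRT8, KRT18 and KRT19), with sums of 609 to 708 TPM in binding libraries, against 317 to 348 TPM in the non-binding ones and ESR1 at 0 in all 6. The 7 genes that mark this mesenchymal-like line, VIM among them, were all detected. Of these, CAV1, CD44 and AXL rose, and the sum of the 7 was 2134 to 2230 TPM in binding libraries, against 1821 to 1899 TPM in the non-binding ones. MSN went the other way without being called, at 431, 569 and 572 TPM in binding libraries, against 647, 621 and 704 TPM in the non-binding ones. The leukocyte, fibroblast, endothelial and adipocyte marker sums overlapped between the groups. The part of these shifts in the synthetase results was not tested. In such bulk samples, fewer cells of a type and less RNA per cell cannot be told apart.

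DARS, the cytosolic aspartyl-tRNA synthetase and a member of the multi-synthetase complex (ENSG00000115866, chromosome 2, 135906677 to 135986100, minus strand, GENCODE 29 on hg38), had 229, 268 and 264 TPM in binding libraries and 401, 401 and 372 TPM in non-binding libraries. All 3 binding libraries lay below all 3 non-binding libraries. Its log2 change was -0.63 with an SE of 0.12, and -0.98 after subtracting the median of the table (limma, Benjamini-Hochberg adjusted p = 0.0163). The change ranged from -0.94 with the common median to -0.51, and the call held in 12 of 14 alternatives, being lost without non-binding replicate 2 (adjusted p = 0.0606 by limma) and without non-binding replicate 3 (adjusted p = 0.0572 by limma). As a share of the summed TPM of all 20 cytosolic members, DARS made up 5.32%, 8.52% and 8.29% in binding libraries and 13.99%, 13.7% and 13.7% in non-binding libraries. DARS was thus the second highest cytosolic synthetase after SARS in non-binding cells, and lay below GARS in each binding library. The antisense gene DARS-AS1, whose annotated exons overlap DARS by 305 bases, averaged 0.631 ± 0.278 TPM in binding libraries, against 0.348 ± 0.165 TPM in the non-binding ones (mean and SD, n = 3 each).

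No other member of the multi-synthetase complex was called lower at the main scaling. Of the 8 synthetases bound in the complex, 4 rose (IARS, LARS, MARS and QARS), 1 fell (DARS) and 3 did not pass (EPRS, KARS and RARS), with a median log2 change of 0.53. Of all genes tested, 19.6% were called higher and 7.12% lower, with a median of 0.36. Relative to the median level of the other 7 in the complex, DARS stood at 1.43, 2.45 and 2.26 times in binding libraries and at 4.59, 4.98 and 4.62 times in non-binding libraries. EPRS, a fused enzyme for glutamate and proline, had 249.8, 211 and 217 TPM in binding libraries, against 231, 266 and 237 TPM in the non-binding ones. The EPRS groups overlapped, with a log2 change of -0.11 (limma, Benjamini-Hochberg adjusted p = 0.501) that passed only with the common median, at -0.43 (limma, adjusted p = 0.0413). KARS, the dual-compartment lysine enzyme, averaged 139.7 ± 7.37 TPM in binding libraries, against 123 ± 4.95 TPM in the non-binding ones (mean and SD, n = 3 each). RARS, for arginine, averaged 127 ± 29.2 TPM in binding libraries, against 87.0 ± 4.98 TPM in the non-binding ones (mean and SD, n = 3 each; adjusted p = 0.0569 by limma).

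IARS, for isoleucine, had 185, 119 and 122 TPM in binding libraries and 87.2, 80.4 and 80.0 TPM in non-binding libraries, a log2 change of 0.74 (SE 0.19; limma, Benjamini-Hochberg adjusted p = 0.0278). MARS, for methionine, had 188, 109.5 and 117 TPM in binding libraries, against 84.0, 78.0 and 80.5 TPM in the non-binding ones, a log2 change of 0.72 (SE 0.21; limma, adjusted p = 0.0379). MARS exons overlap those of DDIT3 on the other strand by 355 bases in the annotation, and DDIT3 averaged 34.3 ± 13.1 TPM in binding libraries, against 40.8 ± 3.89 TPM in the non-binding ones (mean and SD, n = 3 each). LARS, for leucine, had 102, 73.9 and 73.5 TPM in binding libraries, against 59.5, 46.4 and 51.7 TPM in the non-binding ones, a log2 change of 0.64 (SE 0.18; limma, adjusted p = 0.0345). QARS, for glutamine, had 102, 74.0 and 78.2 TPM in binding libraries, against 61.3, 55.2 and 54.8 TPM in the non-binding ones, a log2 change of 0.55 (SE 0.16; limma, adjusted p = 0.0388). In each of these 4 genes the binding libraries all exceeded the non-binding ones, and relative to all genes the changes were 0.39, 0.37, 0.29 and 0.19. None of the 4 was called with the common median, where adjusted p by limma lay between 0.0745 and 0.197. The calls of LARS and QARS held without binding replicate 1 and were lost without any 1 of the other 5 libraries. IARS was lost without any 1 of the non-binding libraries, and MARS without any 1 of these or binding replicate 3.

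Outside the complex, 5 of 12 cytosolic genes rose and 7 did not pass, where 19.6% of all genes tested were called higher. Their median log2 change was 0.53, the same as inside the complex. WARS, for tryptophan, also known as an interferon-inducible gene (ENSG00000140105, chromosome 14, 100333788 to 100376805, minus strand), had 169, 119 and 117 TPM in binding libraries, against 82.8, 66.1 and 73.6 TPM in the non-binding ones. Its log2 change of 0.84 (SE 0.18) was the highest of the cytosolic set and 0.48 above the median of the table (limma, Benjamini-Hochberg adjusted p = 0.0202). The common median gave 0.52 (limma, adjusted p = 0.0396) and quantile normalization 0.75 (limma, adjusted p = 0.0276), and the call held in 12 of 14 alternatives, lost without non-binding replicate 2 (adjusted p = 0.0685 by limma) and without non-binding replicate 3 (adjusted p = 0.0644 by limma). The phenylalanine enzyme is built of alpha and beta subunits. FARSA, the alpha subunit, had 239, 162 and 154 TPM in binding libraries, against 113, 103 and 92.1 TPM in the non-binding ones, a log2 change of 0.82 (SE 0.19; limma, adjusted p = 0.0230). The FARSA call was lost without non-binding replicate 2 or non-binding replicate 3 and with the common median. FARSB, the beta subunit, had 82.5, 50.4 and 52.4 TPM in binding libraries, against 45.8, 41.8 and 42.4 TPM in the non-binding ones, a log2 change of 0.47 that did not pass (limma, adjusted p = 0.111). The FARSA to FARSB ratio of TPM was 2.89, 3.21 and 2.95 in binding libraries and 2.46, 2.46 and 2.17 in non-binding libraries, so the groups did not overlap in it.

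CARS, for cysteine, had 66.6, 43.3 and 41.7 TPM in binding libraries, against 28.3, 27.9 and 27.9 TPM in the non-binding ones, a log2 change of 0.80 (SE 0.20; limma, Benjamini-Hochberg adjusted p = 0.0271). TARS, for threonine, had 188, 128 and 129 TPM in binding libraries, against 91.4, 83.6 and 83.2 TPM in the non-binding ones, a log2 change of 0.76 (SE 0.17; limma, adjusted p = 0.0231). HARS, for histidine, had 74.1, 48.9 and 48.9 TPM in binding libraries, against 38.3, 30.9 and 35.7 TPM in the non-binding ones, a log2 change of 0.67 (SE 0.20; limma, adjusted p = 0.0399). In all 3 the groups did not overlap and binding replicate 1 was the highest library. Without it the changes were 0.58 for CARS, 0.57 for TARS and 0.48 for HARS, each still called (limma, adjusted p = 0.0186, 0.0146 and 0.0472), where 12.7% of all genes were then higher and 5.7% lower. With the common median none of the 3 passed, CARS and TARS were lost without any 1 of the non-binding libraries, and HARS without any 1 of the 5 libraries other than binding replicate 1. GARS, the dual-compartment glycine enzyme, had 318, 286 and 268 TPM in binding libraries, against 272, 296 and 274 TPM in the non-binding ones, a log2 change of 0.05 with overlapping groups (limma, adjusted p = 0.772). SARS, for serine, the highest synthetase of all, had 1022, 682 and 687 TPM in binding libraries, against 582, 642 and 561 TPM in the non-binding ones and did not pass (limma, adjusted p = 0.116). The remaining cytosolic genes AARS, NARS, VARS and YARS had log2 changes of 0.52, 0.40, 0.18 and 0.53 and did not pass (limma, adjusted p = 0.0673, 0.0997, 0.342 and 0.0652). Over the 20 cytosolic genes, the binding libraries all exceeded the non-binding ones in 16 and below in 1, where 38.6% and 13.6% of all genes tested did so.

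**Figure D3:**
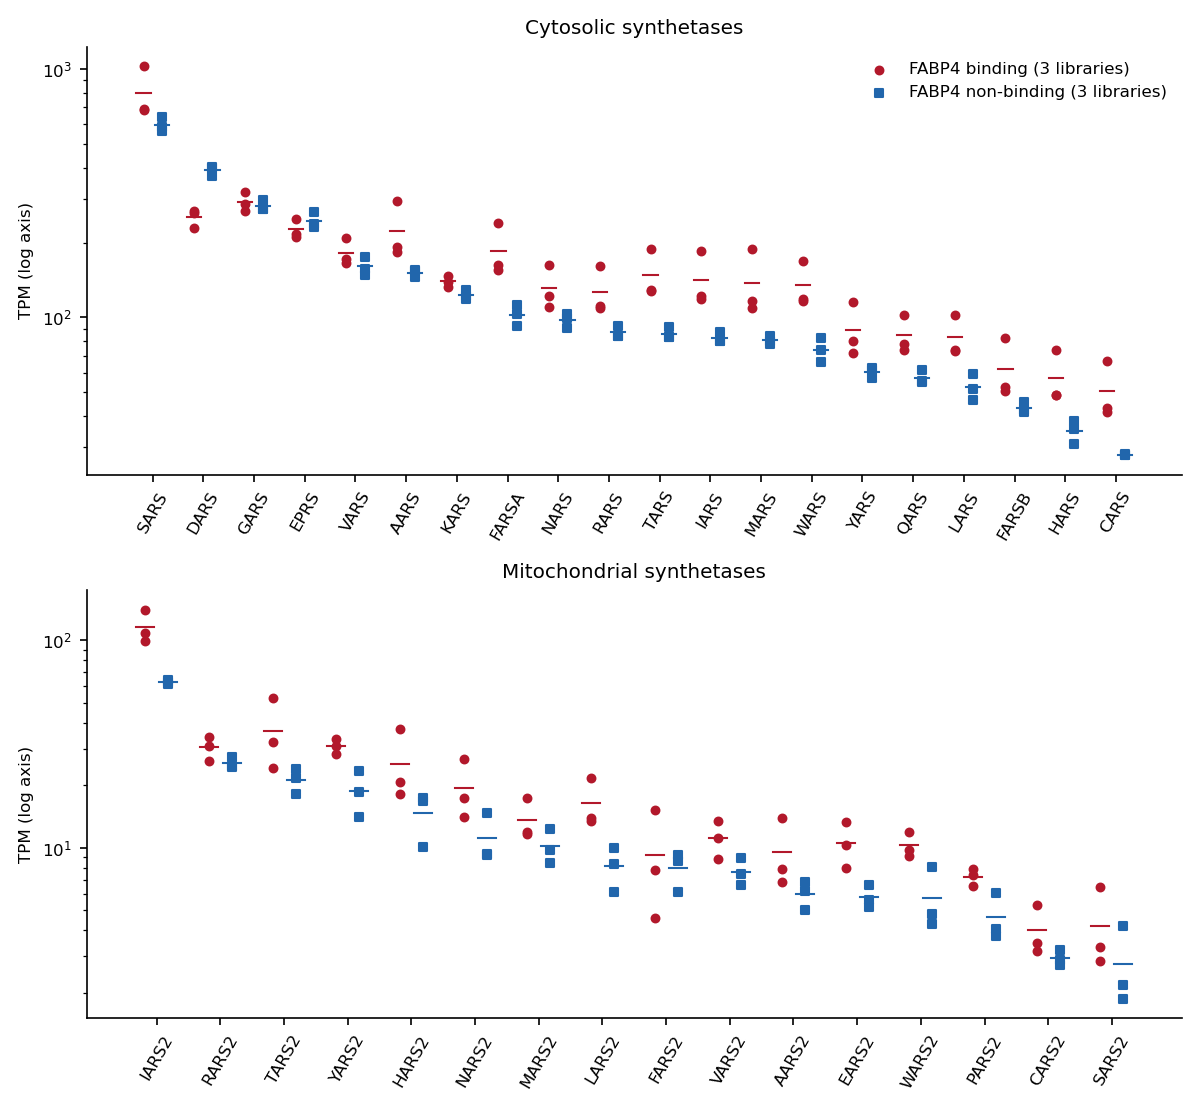
TPM of each synthetase gene in every library (log axis), FABP4 binding as circles on the left and FABP4 non-binding as squares on the right of each gene, with the mean of 3 libraries as a line; genes are ordered by their non-binding mean. DARS is the only gene whose binding points all lie below its non-binding points.

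Of the 7 cytosolic genes with a CARE core in their window, 4 rose (CARS, IARS, MARS and TARS), with a median log2 change of 0.72. Of the 9 with a window and no core 4 rose as well (FARSA, HARS, QARS and WARS), with a median of 0.52. GARS, with the core 33 bases before its start, had the smallest change in size of all 20. Of all genes tested, 19.6% were called higher, with a median log2 change of 0.36. DARS, LARS, VARS and YARS had no window and are in neither group, though DARS was called lower and LARS higher. The genes with and without the core were not tested against each other.

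In the mitochondrial set all 16 log2 changes were positive, where 68.1% of all genes tested were. IARS2, for isoleucine (ENSG00000067704, chromosome 1, 220094102 to 220148041, plus strand), had 140.4, 108 and 99.2 TPM in binding libraries, against 64.1, 61.2 and 62.7 TPM in the non-binding ones. It was the most abundant mitochondrial synthetase in both groups, at 116 ± 21.7 TPM in binding libraries, against 62.7 ± 1.44 TPM in the non-binding ones (mean and SD, n = 3 each). Its log2 change was 0.86 with an SE of 0.16, and 0.50 after subtracting the median of the table (limma, Benjamini-Hochberg adjusted p = 0.0153). The common median gave 0.54 (limma, adjusted p = 0.0252) and quantile normalization 0.74 (limma, adjusted p = 0.0196), and the call held in 12 of 14 alternatives, lost without non-binding replicate 2 or non-binding replicate 3 (limma, adjusted p = 0.0573 and 0.0565). Its promoter window carries the nuclear respiratory factor 1 motif, in capitals, 16 bases before the start, and is printed in full as that of the most clearly changed mitochondrial member (chr1:220093882-220094181, plus strand, GRCh38.p14).
IARS2: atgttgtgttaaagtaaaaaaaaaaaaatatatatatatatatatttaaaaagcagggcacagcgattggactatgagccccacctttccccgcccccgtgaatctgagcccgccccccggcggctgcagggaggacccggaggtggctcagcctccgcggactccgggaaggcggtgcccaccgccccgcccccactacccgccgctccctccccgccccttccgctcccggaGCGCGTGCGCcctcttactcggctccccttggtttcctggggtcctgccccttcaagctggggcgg

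LARS2, for leucine, had the largest log2 change of all members, 0.92 with an SE of 0.25, which is 0.56 above the median of the table (limma, Benjamini-Hochberg adjusted p = 0.0349), with 21.7, 13.9 and 13.4 TPM in binding libraries, against 8.30, 6.09 and 9.98 TPM in the non-binding ones. YARS2, for tyrosine, had 33.4, 30.7 and 28.3 TPM in binding libraries, against 18.6, 14.1 and 23.4 TPM in the non-binding ones, a log2 change of 0.72 (SE 0.20; limma, adjusted p = 0.0369). EARS2, for glutamate, had 13.3, 8.01 and 10.3 TPM in binding libraries, against 5.16, 5.58 and 6.62 TPM in the non-binding ones, a log2 change of 0.75 (SE 0.23; limma, adjusted p = 0.0458). In all 3 the groups did not overlap. None of them passed with the common median or quantile normalization, LARS2 and YARS2 were lost without any 1 library, and of the 6 fits that left out a library, EARS2 passed only in the one without binding replicate 2. EARS2 shares 370 exon bases with UBFD1 on the other strand, which averaged 29.4 TPM in binding libraries, against 37.2 TPM in the non-binding ones.

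The other 12 mitochondrial members did not pass, with adjusted p between 0.0525 and 0.906 by limma. WARS2, for tryptophan, was the closest, at 11.9, 9.14 and 9.72 TPM in binding libraries, against 4.78, 4.27 and 8.03 TPM in the non-binding ones (log2 change 0.78, SE 0.25). HARS2, which shares its promoter region with HARS, had 37.3, 20.6 and 18.2 TPM in binding libraries, against 17.4, 16.7 and 10.1 TPM in the non-binding ones. Its log2 change of 0.71, close in size to the 0.67 of HARS, had a larger standard error, 0.31 against 0.20 for HARS (limma, Benjamini-Hochberg adjusted p = 0.109). HARS and HARS2 exons overlap by 437 bases on opposite strands in the annotation, and strand use in counting is not given in the sources used here, so some reads could belong to either. HARS2 also shares 152 exon bases with ZMAT2 on the same strand, which averaged 134 TPM in binding libraries, against 124 TPM in the non-binding ones. FARS2, for phenylalanine, had the smallest change, with 15.2, 4.56 and 7.83 TPM in binding libraries, against 6.12, 9.19 and 8.64 TPM in the non-binding ones and a log2 change of 0.06 (SE 0.37). RARS2, CARS2 and MARS2, for arginine, cysteine and methionine, had log2 changes of 0.24, 0.32 and 0.38. NARS2, TARS2, PARS2, AARS2, VARS2 and SARS2 had changes between 0.46 and 0.73. VARS2 shares 1858 exon bases with GTF2H4 on the same strand, and SARS2 shares 1492 with the gene AC011455.2, listed at 0. The mitochondrial genes had lower levels than the cytosolic ones. Their group means ran from 3.99 to 116 TPM in binding libraries, against 2.75 to 62.7 TPM in the non-binding ones. Cytosolic means ran from 50.6 to 797 TPM in binding libraries, against 28.01 to 595 TPM in the non-binding ones. Groups did not overlap in 8 of 16 mitochondrial members, each with the binding libraries above, where 38.6% of all genes tested lay so.

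Summed over the set, cytosolic synthetases took 4301, 3147 and 3186 TPM in binding libraries and 2862, 2927 and 2711 TPM in non-binding libraries. The mitochondrial set took 447, 318 and 298 TPM in binding libraries, against 218, 203 and 226 TPM in the non-binding ones. Both sums were higher in every binding library than in any non-binding library, 1.25 times as high by group means for the cytosolic set and 1.64 times for the mitochondrial set. Of all genes tested, 38.6% had every binding library above every non-binding one, and the median log2 change of all genes tested was 0.36. As a fold, that median lies above the cytosolic ratio and below the mitochondrial one. The measures are unlike, since the median is per gene on log2(TPM + 1) and the ratios are of summed TPM. The mitochondrial sum equalled 10.4%, 10.1% and 9.37% of the cytosolic sum in binding libraries and 7.60%, 6.94% and 8.35% in non-binding libraries. This ratio does not change when all TPM of a library are multiplied by a constant, and the groups did not overlap in it. Quantile normalization is not such a multiplication and can change it. The ratio is weighted by a few abundant genes, SARS and DARS in the cytosolic set and IARS2 in the mitochondrial set. The median TPM of the cytosolic members, averaged over the libraries of a group, was 1.61 times as high in binding libraries. For the mitochondrial members it was 1.48 times as high, so the order of the 2 sets was the reverse of that of the sums.

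**Figure D4:**
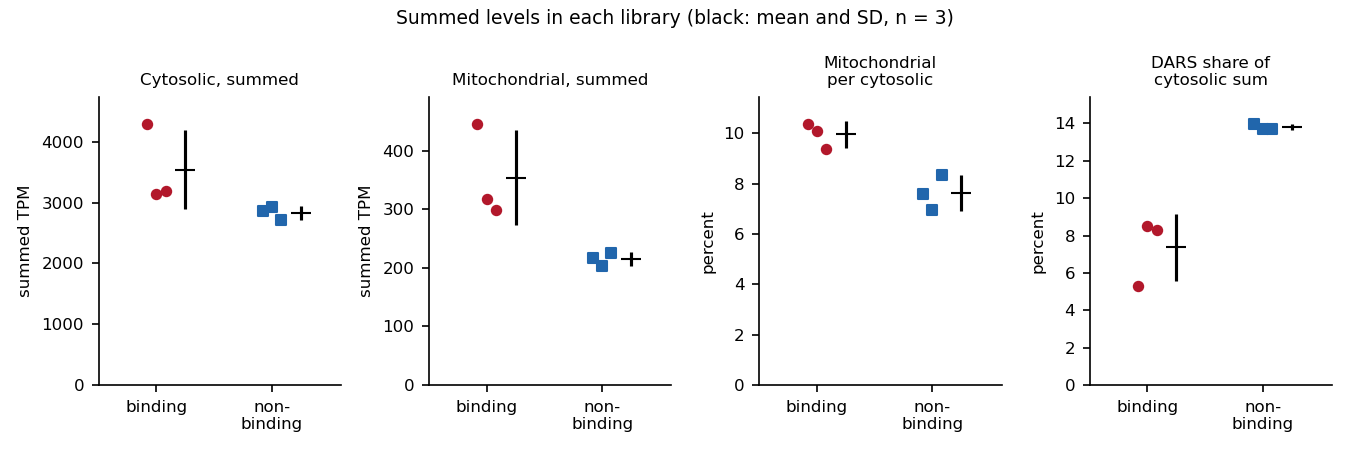
Summed TPM of the 20 cytosolic and 16 mitochondrial synthetases, the mitochondrial sum as a percent of the cytosolic sum, and the share of DARS in the cytosolic sum, for each library, with the mean and SD of 3 in black. The mitochondrial percentage is 9.37 to 10.4 in binding and 6.94 to 8.35 in non-binding libraries, and the DARS share is 5.32 to 8.52 in binding and 13.7 to 13.99 in non-binding libraries.

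There were 13 amino acids with 1 member in each set. The log2 change was larger in the mitochondrial enzyme for 8 and in the cytosolic enzyme for 5, with a median difference of 0.04, and with quantile normalization it was larger in the mitochondrial enzyme for 4. The differences ran from 0.33 for asparagine, with NARS2 at 0.73 and NARS at 0.40, to -0.48 for cysteine, with CARS2 at 0.32 and CARS at 0.80. Both enzymes were called higher for isoleucine and leucine, only the cytosolic one for 5 amino acids, only the mitochondrial one for tyrosine, and neither for 5. These differences between enzymes were not tested. The cytosolic enzyme had the higher TPM in all 13 pairs and in both groups. By means of the binding libraries it was 1.23 times the mitochondrial enzyme for isoleucine and 189.5 times for serine.

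**Figure D5:**
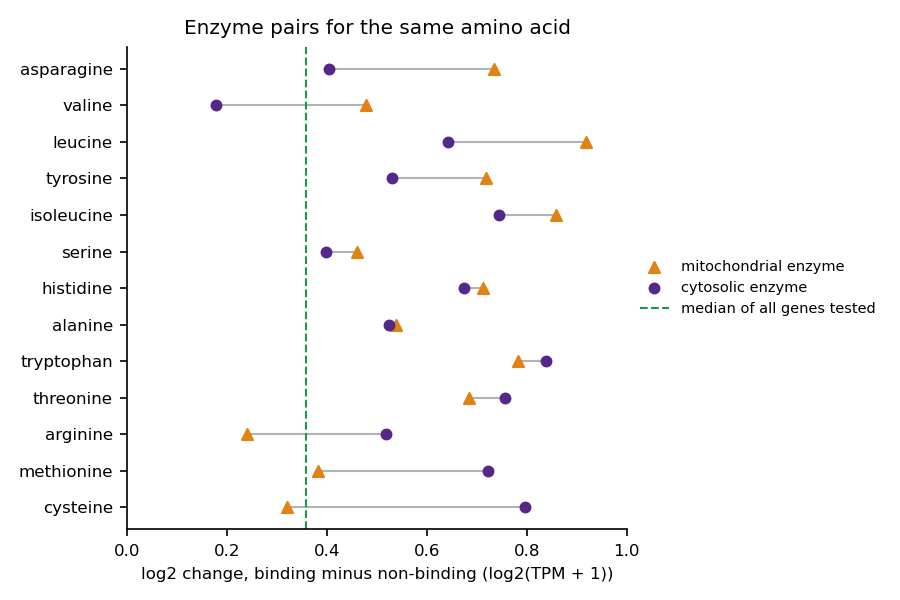
Log2 change, FABP4 binding minus non-binding, of the mitochondrial (triangles) and cytosolic (circles) enzyme for each of 13 amino acids, ordered by their difference; the dashed line is the median of all genes tested. The asparagine pair, at 0.73 and 0.40, and the cysteine pair, at 0.32 and 0.80, differ most in either direction.

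By reaction class (EPRS, a fusion of both, left aside), the class I and class II synthetases being structurally unrelated families, 6 of 9 cytosolic class I genes rose with a median log2 change of 0.64. Of 10 cytosolic class II genes 3 rose and 1 fell, with a median of 0.43. In the mitochondrial set 4 of 9 class I genes rose (median 0.72) and none of 7 class II genes did (median 0.58), with adjusted p by limma between 0.0789 and 0.906 for the 7. Of all genes tested, 19.6% were called higher and 7.12% lower, with a median log2 change of 0.36. With the common median, only WARS and IARS2, of class I, were called higher. With quantile normalization IARS, WARS and IARS2 of class I and FARSA and TARS of class II were. The classes were not tested against each other.

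Among the partners of the synthetases, most genes of the 3 lists that follow did not pass, where 19.6% of all genes tested were called higher. Of 6 genes for complex scaffolds and tRNA editing 1 rose, DTD1, which removes D-amino acids from tRNA, at 69.6 ± 17.5 TPM in binding libraries, against 39.8 ± 3.37 TPM in the non-binding ones (mean and SD, n = 3 each; adjusted p = 0.0293 by limma). The scaffold genes AIMP1, AIMP2 and EEF1E1 had log2 changes of 0.59, 0.35 and -0.29 with overlapping groups and did not pass (limma, adjusted p = 0.122, 0.333 and 0.218). EEF1E1 averaged 37.5 ± 7.28 TPM in binding libraries, against 45.8 ± 4.35 TPM in the non-binding ones (mean and SD, n = 3 each). Of 20 genes for the charging, maturation and modification of mitochondrial tRNA 3 rose and none fell, a share below that of all genes. They were GTPBP3, which modifies the wobble uridine (log2 change 0.74), TRMT10C, a subunit of mitochondrial RNase P (0.64), and ELAC2, which trims tRNA 3′ ends (0.68), with limma adjusted p of 0.0242, 0.0317 and 0.0439. The amidotransferase subunits GATB, GATC and QRSL1 had log2 changes of 0.30, 0.60 and 0.43, none past the threshold (limma, adjusted p = 0.349, 0.159 and 0.308). Of 12 mitochondrial translation factors 5 rose and none fell, with TUFM, the elongation factor that carries charged tRNA to the ribosome, at 397 ± 90.1 TPM in binding libraries, against 238 ± 16.6 TPM in the non-binding ones (mean and SD, n = 3 each). Its log2 change was 0.72, that of the release factor MTRF1L 0.78 and that of the initiation factor MTIF2 0.67 (limma, adjusted p = 0.0248, 0.0353 and 0.0365). The median log2 changes of these lists were 0.47, 0.58 and 0.68, and without binding replicate 1 they were 0.18, 0.31 and 0.48. No gene of the 3 lists was called without non-binding replicate 2 or non-binding replicate 3. With the common median no gene of the 3 lists was called, and with quantile normalization 1 translation factor was called higher. The shares of all genes called higher were 6.18% and 7.69% under these 2 scalings.

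Of 36 genes of the amino acid response and ATF4 targets, 35 were tested, 17 rose, none fell and 18 did not pass, where 19.6% of all genes were called higher. The median log2 change of the list was 0.70, and 0.43 without binding replicate 1. With the common median 10 rose and 1 fell, where 6.18% of all genes were called higher and 12.1% lower. With quantile normalization 8 rose, where 7.69% of all genes were called higher and 8% lower. SLC7A5, a carrier of large neutral amino acids, had 1496, 889 and 884 TPM in binding libraries, against 452, 481 and 462 TPM in the non-binding ones (log2 change 1.18, SE 0.21; limma, Benjamini-Hochberg adjusted p = 0.0142). PSAT1, of serine synthesis, had 589, 393 and 359 TPM in binding libraries, against 232, 218 and 194 TPM in the non-binding ones (log2 change 1.03, SE 0.19; limma, adjusted p = 0.0158). SLC1A5, a glutamine carrier, and ASNS, asparagine synthetase, changed by 0.94 and 0.84 (limma, adjusted p = 0.0178 and 0.0206). These 4 genes were also called higher under both other scalings. ATF4 itself had 929, 548 and 513 TPM in binding libraries, against 556, 742 and 585 TPM in the non-binding ones, with overlapping groups and a log2 change of 0.04 (limma, adjusted p = 0.907). Without binding replicate 1, 16 genes of the list rose and 1 fell, where 12.7% of all genes were called higher and 5.7% lower. Without non-binding replicate 2 or non-binding replicate 3 no gene of the list was called.

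Upstream of ATF4, 5 of 16 genes for eIF2, its kinases and its exchange factor rose, 1 fell and 10 did not pass, where 19.6% of all genes were called higher and 7.12% lower. GCN1, which activates the kinase that senses uncharged tRNA, had 71.1, 51.5 and 54.6 TPM in binding libraries, against 33.4, 30.1 and 31.0 TPM in the non-binding ones (log2 change 0.87, SE 0.16; limma, Benjamini-Hochberg adjusted p = 0.0157). EIF2AK1, the heme-regulated eIF2 kinase, changed by 0.79 (limma, adjusted p = 0.0176). EIF2S1, the phosphorylated alpha subunit of eIF2, fell to 198, 273 and 254 TPM in binding libraries, against 428, 377 and 399 TPM in non-binding libraries (log2 change -0.74, SE 0.15; limma, adjusted p = 0.0182). Of 30 genes for the synthesis, processing and export of cytosolic tRNA 8 rose and 1 fell, where the shares of all genes were the same 19.6% and 7.12%. The 8 included MAF1, a repressor of RNA polymerase III (0.85), TSEN34, a subunit of the tRNA splicing endonuclease (0.75), and GTF3C1, of the factor that binds tRNA promoters (0.89), with limma adjusted p of 0.0158, 0.0228 and 0.0263. RTCB, the tRNA ligase, averaged 237 ± 23.1 TPM in binding libraries, against 317 ± 11.8 TPM in the non-binding ones (mean and SD, n = 3 each; limma, adjusted p = 0.0399), the only fall of that list. With the common median the eIF2 list had 2 higher and 3 lower and the tRNA list 1 higher and 2 lower. With quantile normalization both lists had 2 higher and 1 lower. The shares of all genes called higher and lower were 6.18% and 12.1% with the common median. With quantile normalization they were 7.69% and 8%. No gene of either list was called without non-binding replicate 2 or non-binding replicate 3.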

How the data were processed

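Sequencing followed depletion of ribosomal RNA from the sorted cells' total RNA, per the labels' protocols. The deposited values are TPM, one column per library, from the values themselves, since each column sums to 1000000 over 58051 genes. The submitters' processing notes name the build hg38. For the aligner, quantification tool, annotation and strand use, no name is given in the sources used here. Because read depth cannot be read from TPM, counting precision is unknown and no count model was run.

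The 15574 genes that reached 1 TPM in 3 or more libraries entered limma 3.58.1 (R 4.3.3) as log2(TPM + 1), with a mean-variance trend and group as the only term. P-values were Benjamini-Hochberg adjusted over all of these genes, at 0.05. Fold changes on this scale understate those of low genes. The 36 members, the 6 related lists (120 entries, all matched) and the tests were chosen with earlier results of these data known. Lists are given by counts and medians, with no test. The text names all members and, per related list, the 3 called genes with the smallest p, with ATF4, ASNS, AIMP1, AIMP2, EEF1E1, GATB, GATC and QRSL1 whatever they showed. Others were named after their values were seen. Coordinates and overlaps come from GENCODE release 29 (hg38), which may not be the annotation the submitters used, and promoters from RefSeq (GRCh38.p14). Of 14 pseudogenes named for members, 9 were at 0 in all libraries and 2 reached 1 TPM (FARSBP1 and RARSP1). Pairs of replicate libraries differed, with a correlation of log2 values of at least 0.951 within a group. Between the groups it ran from 0.895 to 0.950, so some libraries were nearly as close to the other group.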

Additional observations from a re-analysis of the deposited data

How the results depend on the processing

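In total 14 alternatives were tried. Over all genes tested, 3047 were called higher and 1109 lower in the binding libraries. Without a filter on low values the counts were 1373 and 500, without the intensity trend 1992 and 567, with the common median 962 and 1890, and 1197 higher with quantile normalization. Of the cytosolic synthetases 9 were called higher and 1 lower, with 3 higher without a filter, 3 without the trend, 4 with quantile normalization, and 1 higher and 2 lower with the common median. Of the mitochondrial synthetases 4 were called higher, and 1 in each of those 4 settings. The median log2 change of the cytosolic set was 0.21 with the common median and 0.43 after quantile normalization, against 0.53. That of the mitochondrial set was 0.31 after the common-median shift and 0.33 after quantile normalization, against 0.63. Quantile normalization hence placed the cytosolic set above the mitochondrial one, the reverse of their order at the main scaling. The number of pairs with the larger change in the mitochondrial enzyme was 4 with quantile normalization, against 8. The cause of these shifts was not tested. Leaving out 1 library at a time gave 58 to 1975 genes higher and 6 to 888 lower, 0 to 10 cytosolic members higher and 0 to 1 lower, and 0 to 2 mitochondrial members higher. The lowest counts came without non-binding replicate 3 and non-binding replicate 2. Leaving out TPM of the mitochondrial genome raised the member calls to 13 cytosolic and 6 mitochondrial genes higher. The calls over all genes rose as well, to 4477 higher of 15756 tested, with 813 lower. Deviations of same-numbered libraries from their group means correlated at 0.0349, -0.0167 and 0.0284. The labels do not tell whether same-numbered libraries were prepared together, and these correlations cannot decide it. A fit with the replicate block called 3174 genes higher and 1132 lower, with 10 cytosolic members higher, 1 lower and 5 mitochondrial members higher. Under the block RARS, HARS2 and NARS2 were gained and EARS2 was lost. No member that was called changed sign in any alternative. TPM keep no depth, so the counting error of the low mitochondrial members is unknown.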

Other observations

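The most abundant cytosolic synthetases were not those called higher. Of the 6 with the highest mean over all libraries (SARS, DARS, GARS, EPRS, AARS and VARS) none was called higher and 1 was called lower by limma, with a median log2 change of 0.11. Of the other 14, 9 were called higher and none lower, with a median of 0.66, where 19.6% of all genes tested were called higher and 7.12% lower. This split was made after the values were seen and was not tested. Though not called, SARS and AARS had log2 changes of 0.40 and 0.52, with all binding libraries above all non-binding ones. The groups overlapped in GARS, EPRS and VARS. TARSL2, a threonyl-tRNA synthetase paralog outside the 36 genes, had 1.84, 2.21 and 5.02 TPM in binding and 3.31, 1.89 and 0.770 TPM in non-binding libraries, with overlapping groups.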
